A study of Homo sapiens with 6 samples.

Results

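The genes of mitosis and of the cell cycle engine were examined in RNA-seq of HT-29 cells, an established human colorectal adenocarcinoma line, after depletion of OGT. Members were the protein-coding genes whose symbols match families of the division machinery, namely cyclins (CCNA, CCNB, CCND, CCNE, CCNF and CCNG), numbered CDK, CDC and CDCA genes, Aurora (AURK), Polo-like (PLK) and NIMA-related (NEK) kinases, BUB genes, TTK, centromere proteins (CENP), the SKA, SPC2, NDC80 and NUF2 genes, kinesins (KIF and KIFC), augmin subunits (HAUS), condensin (NCAP) and SMC genes, ESPL1, PRC1, TPX2, ANAPC genes and centrosomal proteins (CEP), with CDC42 and its relatives left out. The rule used names only, and it found 77 of the 5681 genes in the deposited table. The study compared 2 groups of 3 libraries. Control cells carried a non-targeting Scramble small hairpin RNA (shRNA), with the genotype given as wild type, and OGT-depleted cells (shOGT) carried an shRNA against OGT, the transferase that places O-GlcNAc on nuclear and cytosolic proteins. Both groups were the same line without a further agent in their labels, and the labels do not say whether the 3 libraries of a group came from separate cultures, so p-values measure the spread between these libraries, which may be technical.

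Cell division runs on cyclins, whose rise and destruction switch the cyclin-dependent kinases on and off, and on the Aurora, Polo-like and NIMA-related kinases, which drive centrosome separation, spindle assembly and chromosome attachment. Kinetochores built on CENPA chromatin hold the spindle microtubules, the spindle checkpoint blocks the anaphase-promoting complex (APC/C) until every chromosome is attached, and separase then cuts cohesin. Many of these genes are transcribed mainly from late S phase to mitosis.

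The table sets a limit on every count. It lists only genes that already differed at least 2-fold between the groups with an adjusted p under 0.05 in the authors' own test, so that passing a test on the same libraries is no result, and only the direction, the size and the level of a change are described. A further 155 genes that the rule names in the GENCODE 29 annotation, CDK1 and PLK1 among them, were not analysed here. Gene positions are on GRCh38. Values are given in normalized counts, that is, reads over the library's size factor, without division by gene length. Recovered whole reads on the table's genes numbered 4145921 to 4504303 per Scramble library and 3302558 to 3471647 per shOGT library. OGT itself read 9628, 11638 and 11619 normalized counts in Scramble and 484, 621 and 537 in shOGT, so that 4.99% of the Scramble mean remained (log2 fold change -4.32, SE 0.11, limma adjusted p = 1.59e-12). With 3 libraries against 3 the exact two-sided permutation test of this difference gave p = 0.1, the smallest it allows. The colon epithelium markers in the table moved in both directions with the knockdown. KRT20 read 807 to 935 normalized counts in Scramble and 5533 to 5767 in shOGT (log2 fold change 2.69), and KRT19 (1.39) and the low CDH17 (1.34, at 33.0 normalized counts or less) were also higher in shOGT. LGALS4 read 2055 to 2383 in Scramble and 539 to 595 in shOGT (log2 fold change -1.97), and VIL1 was lower too (-1.12). The table lists 1 of 8 fibroblast markers and 1 of 4 endothelial markers, and both were higher in shOGT without overlap. PDGFRB read 1.80 normalized counts or less in Scramble and 10.5 to 17.1 in shOGT, and PECAM1 read 42.3 to 51.4 in Scramble and 129 to 199.99 in shOGT (log2 fold change 1.78). The leukocyte list is represented by LYZ and CD14, with a sum of 7930 to 8631 in Scramble and 15673 to 17421 in shOGT that is nearly all LYZ. PTPRC and CD3E were not analysed here. These markers moved with the same groups as the division genes, and their part in the values below was not tested.

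Most of the division genes listed in the table were lower in the OGT-depleted cells. The table holds only changed genes, so this is not a share of all genes that the rule names. Of the 77, 65 fell and 12 rose, and the 3 shOGT libraries lay wholly below or wholly above the 3 Scramble libraries for each of them. All 77 passed the filter on low values (3 or more libraries at 1 normalized count or above) and were called by limma's trend method, at an adjusted p under 0.05 and over 2-fold. CDK14 passed it through the shOGT libraries alone and could only come out higher, so its direction is no result. Across the 5671 genes tested, 99.4% were called and 99.5% did not overlap between the groups, which follows from how the table was made. Apart from CDK14, the direction of the division genes was not fixed in advance. 84.4% of the division genes were called lower, against 47.2% of all genes tested and 57.1% of the 4127 protein-coding genes tested, whereas 52.2% of all genes tested were called higher. The median log2 fold change was -1.31 for the division genes, 1.05 for all genes tested and -1.11 for the protein-coding genes. No test of these shares was run. The 65 lower genes had a median log2 fold change of -1.45, or 36.5% of the Scramble level remaining, beside -1.54 and 34.2% for all lower genes. The 3 shOGT libraries gave nearly the same fall, with medians over the 65 genes of -1.52, -1.50 and -1.51 relative to the Scramble mean. The spread was small, since the median coefficient of variation among 74 members was 7.29% in Scramble and 11.9% in shOGT. Left out there were CDK14, HAUS7 and CEP295NL, whose means over all 6 libraries were the lowest. RNA was taken from bulk cultures, so that fewer cells in a phase of the cycle and less RNA per cell cannot be told apart.

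The count of calls depends on the scaling of the libraries. With median-of-ratios factors taken from the table's own genes, log2 fold changes moved up by 0.71, the number of division genes called lower went from 65 to 25, and that of all genes called lower from 2677 to 1089. All 65 kept a negative and all 12 kept a positive log2 fold change, with a median over the 77 of -0.60. That rescaling takes a table chosen for its changes as its reference. After it, the 25 genes that stayed over 2-fold lower were KIF21B, KIF12, KIFC2 and KIF24, the kinetochore genes CENPM, CENPI, SPC25, CENPA and CENPF, the augmin genes HAUS7, HAUS4 and HAUS1, CDK18 and CDK2, AURKB, NEK9 and CDC25C, KIFC1 and KIF18B, NCAPD2 and NCAPH2, CDCA5, CDCA3 and CDCA7, and CEP70. The cyclins, the checkpoint genes, AURKA, PLK4 and CDK4 were among the 40 that were less than 2-fold lower on that scale.

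**Figure D1:**
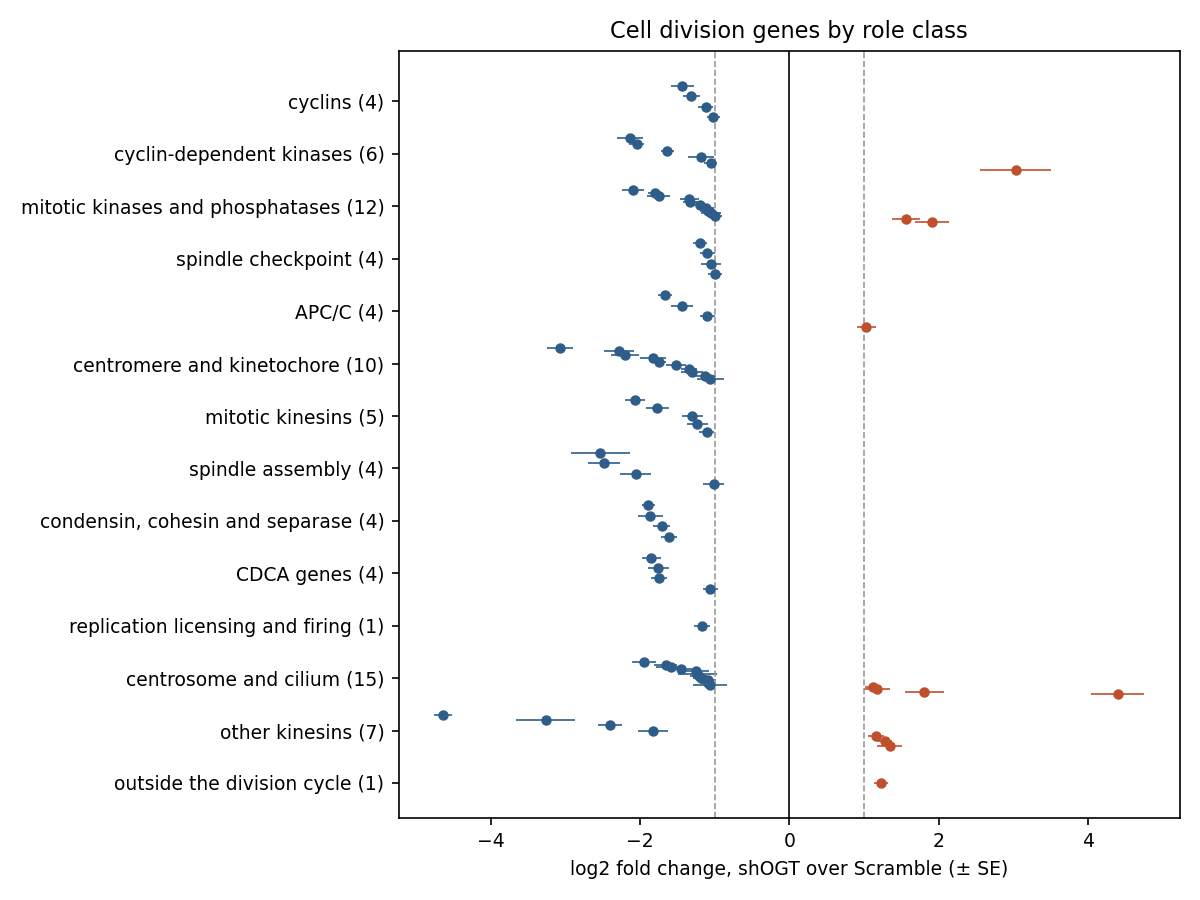
Log2 fold change of each division gene, shOGT over Scramble, by role class (x axis, log2 units; bars, standard error; dashed lines, 2-fold; number of genes in parentheses, 4 genes standing in 2 classes). The 65 genes in blue were lower and the 12 in red higher, and no gene lies between the dashed lines because the table holds only genes past 2-fold.

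Promoters were searched for the motifs below, with the members split by direction. RefSeq windows of GRCh38.p14, from 250 bases before to 50 after the start of each gene, were found for 67 of the 77 genes (56 lower and 11 higher), and the first window listed was used. The motifs searched on both strands were the CCAAT box (CCAAT), bound by NF-Y, the cell cycle genes homology region, or CHR element (TTTGAA or TTCGAA), bound by the MuvB core of the DREAM complex, a set of E2F sites (TTTCCCGC, TTTGGCGC or TTTCGCGC) and the E-box (CACGTG), which c-Myc can bind. A CCAAT box stood in 35 of the 56 lower genes (62.5%) and in 1 of the 11 higher genes, NEK10, compared to 35.7% of the 27305 promoters in all and 45.5% of the protein-coding genes of the table that were lower. A CHR element stood in 26 of the 56 lower genes (46.4%) and in 1 higher gene, CEP85L, beside 16.6% of all promoters and 12.5% of the lower protein-coding genes. Both motifs were present in 19 of the 56 (33.9%), in 0 of the 11, and in 6.58% of all promoters. A CCAAT box stood in 10 of 12 lower genes of the centrosome and other kinesin classes (83.3%) and in 25 of 44 of the rest (56.8%). For the CHR element these shares were 33.3% and 50%, and for both motifs 33.3% and 34.1%. E2F sites were rarer, in 8 of the 56 (14.3%) against 2.79% of all promoters and 5.69% of the lower protein-coding genes, and stood in 0 of the 11 higher genes. The E-box stood in 4 of the 56 (7.14%), near the 7.43% of all promoters and 9.15% of the lower protein-coding genes. Among the higher members it stood in 2 of the 11 (18.2%), ANAPC13 and CDK8, beside 10.5% of the higher protein-coding genes. These motifs were chosen with the directions known, the shares are descriptions without a test, and a match is not a bound site. Genes of the rule outside the table were not set apart. The shares therefore cannot tell a trait of the genes that fell from one of the families named by the rule.

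**Figure D2:**
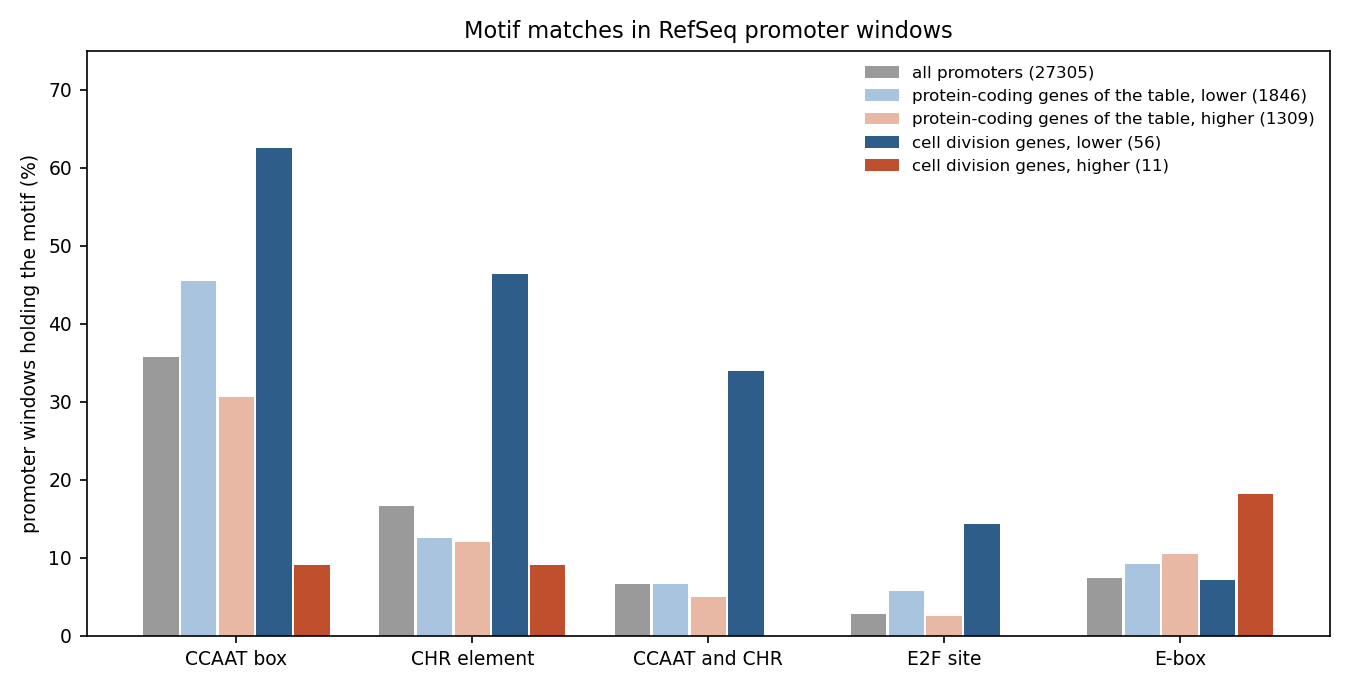
Share of RefSeq promoter windows that hold each motif (y axis, percent; bars start at 0), for all promoters, the protein-coding genes of the table by direction, and the division genes by direction, with the number of windows in parentheses. The dark blue bars of the lower division genes stand at 62.5% for the CCAAT box and 46.4% for the CHR element, and the E-box is the only motif whose share is no higher in them than in all promoters.

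The stretches before the start are printed for lower genes of several role classes that carry both motifs or several CCAAT boxes, and for 2 higher genes, CEP170 without a match and NEK10 with CCAAT boxes alone. CDK4 is shown for its 3 E-boxes. Each reads 5′ to 3′ along the gene's strand, with CCAAT boxes, CHR elements and E-boxes of either strand in capitals. Position -1 is the last base before the start. In CDCA8 the CHR element and the last CCAAT box share 1 base.
CCNB1, chr5:69167020-69167149, plus strand: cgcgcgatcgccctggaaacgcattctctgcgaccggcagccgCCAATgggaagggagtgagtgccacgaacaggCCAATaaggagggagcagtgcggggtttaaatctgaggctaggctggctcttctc
CCNB2, chr15:59105016-59105145, plus strand: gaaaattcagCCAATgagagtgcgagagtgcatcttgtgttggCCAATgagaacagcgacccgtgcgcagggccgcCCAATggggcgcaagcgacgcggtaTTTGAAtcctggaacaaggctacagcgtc
CDC20, chr1:43358851-43358980, plus strand: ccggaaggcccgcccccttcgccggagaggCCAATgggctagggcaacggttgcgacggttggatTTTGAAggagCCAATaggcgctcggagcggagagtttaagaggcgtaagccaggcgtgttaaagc
CDCA8, chr1:37692386-37692515, plus strand: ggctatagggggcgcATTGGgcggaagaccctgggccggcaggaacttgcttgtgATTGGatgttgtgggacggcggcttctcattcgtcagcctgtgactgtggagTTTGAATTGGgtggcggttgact
ESPL1, chr12:53268169-53268298, plus strand: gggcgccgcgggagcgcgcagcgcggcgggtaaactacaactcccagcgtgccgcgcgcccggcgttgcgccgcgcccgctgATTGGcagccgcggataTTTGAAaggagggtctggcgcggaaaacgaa
KIF11, chr10:92593000-92593129, plus strand: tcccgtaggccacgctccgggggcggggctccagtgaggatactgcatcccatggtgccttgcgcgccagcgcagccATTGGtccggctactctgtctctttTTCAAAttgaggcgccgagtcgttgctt
CENPA, chr2:26785926-26786055, plus strand: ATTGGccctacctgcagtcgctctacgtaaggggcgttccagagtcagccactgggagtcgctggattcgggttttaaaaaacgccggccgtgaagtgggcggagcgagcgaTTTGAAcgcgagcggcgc
CEP170, chr1:243255282-243255411, minus strand: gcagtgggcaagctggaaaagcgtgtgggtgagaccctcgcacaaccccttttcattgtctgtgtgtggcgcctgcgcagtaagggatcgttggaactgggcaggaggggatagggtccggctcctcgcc
NEK10, chr3:27369384-27369513, minus strand: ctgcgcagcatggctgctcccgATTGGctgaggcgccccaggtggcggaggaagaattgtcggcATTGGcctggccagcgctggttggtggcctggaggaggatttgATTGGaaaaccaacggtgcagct
CDK4, chr12:57752400-57752535, minus strand: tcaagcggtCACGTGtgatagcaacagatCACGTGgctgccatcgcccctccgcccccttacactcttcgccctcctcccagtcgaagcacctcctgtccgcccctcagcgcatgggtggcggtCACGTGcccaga

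In CCNB2, CCAAT boxes began at -120, -87 and -54 and the CHR element spanned -29 to -24. CCNB1 had CCAAT boxes at the matching places, from -87 and from -55, and its window held neither TTTGAA nor TTCGAA. No other letters were searched for the CHR element. In CDC20 the CHR element spanned -65 to -60, just before the second CCAAT box from -55. ESPL1 and KIF11 had 1 CCAAT box each, from -48 and from -53, and CHR elements from -31 and from -28. CENPA had its CHR element from -18. The E-boxes of CDK4 began at -216, -196 and -101.

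All 4 cyclins of the table fell. CCNE1, the cyclin that starts S phase with CDK2, read 244, 243 and 229 normalized counts in Scramble and 86.3, 92.1 and 84.2 in shOGT, a fall to 36.7% (log2 fold change -1.44, SE 0.15, limma adjusted p = 5.88e-07). CCNF, which serves an SCF ubiquitin ligase, went from 799, 796 and 771 in Scramble to 332, 348 and 275 in shOGT. CCNB1, the cyclin of mitotic entry, read 2097, 2147 and 1978 in Scramble and 942, 1073 and 850.2 in shOGT. For CCNB2, its close relative, the Scramble libraries gave 1631, 1695 and 1647 and the shOGT libraries 864, 760.5 and 825. The highest shOGT library of each cyclin stayed far under its lowest Scramble library, and the log2 fold changes ran from -1.44 for CCNE1 over -1.31 and -1.12 to -1.02 for CCNB2. CCNB2 sat at the edge of the 2-fold limit, at -0.97 without shOGT replicate 5. Per kilobase of exon, CCNB1 was the most abundant cyclin in both groups, at 811 normalized counts per kb in Scramble and 373 in shOGT, above CCNB2 (592 and 292), CCNF (125 and 50.5) and CCNE1 (93.6 and 34.3).

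Of the 6 cyclin-dependent kinases, 5 fell and 1 rose. CDK2, the partner of cyclins E and A (chr12:55966769-55972784), read 1204, 1268 and 1131 in Scramble and 281, 289 and 298 in shOGT, so that 24.1% remained (log2 fold change -2.05, SE 0.10, limma adjusted p = 2.46e-10). CDK4, the partner of D-type cyclins that phosphorylates RB1 in G1 (chr12:57747727-57756013), went from 2399, 2335 and 2191 in Scramble to 770.5, 680.1 and 776 in shOGT, or 32.2% (log2 fold change -1.64). CDK18, a kinase of the PCTAIRE family, read 804, 737 and 725 in Scramble and 224, 125 and 176 in shOGT, and its log2 fold change of -2.14 was the most negative of the 6. The 3 shOGT libraries of CDK2 lay close together, whereas those of CDK18 spread from 125 to 224. CDK16, another PCTAIRE kinase, and CDK5, which acts mainly in neurons, had log2 fold changes of -1.06 and -1.18, and both were just under 2-fold without Scramble replicate 1 (-0.98 and -0.995). CDK14, which pairs with the membrane-bound cyclin Y, was the exception, with 2 reads in all Scramble libraries together and 33 in shOGT, a ratio of 19.9 after scaling (95% exact interval 5.08 to 171, counting error only). No Scramble library of CDK14 reached 1 normalized count. It passed the filter through shOGT alone, so its direction was fixed by that filter. On the exon annotation, 43.2% of CDK4's exon bases lie opposite TSPAN31 and 16.8% of CDK2's opposite PMEL or AC025162.1. For CDK5, 11.3% lie opposite SLC4A2. In other classes, KIFC1 (12.7%), CCNF (11.8%) and CENPU (11.7%) also have exon bases opposite other genes. Over all members, 13 had 10% or more of their exon bases on another gene, on either strand. Whether the counting used strand is not stated.

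**Figure D3:**
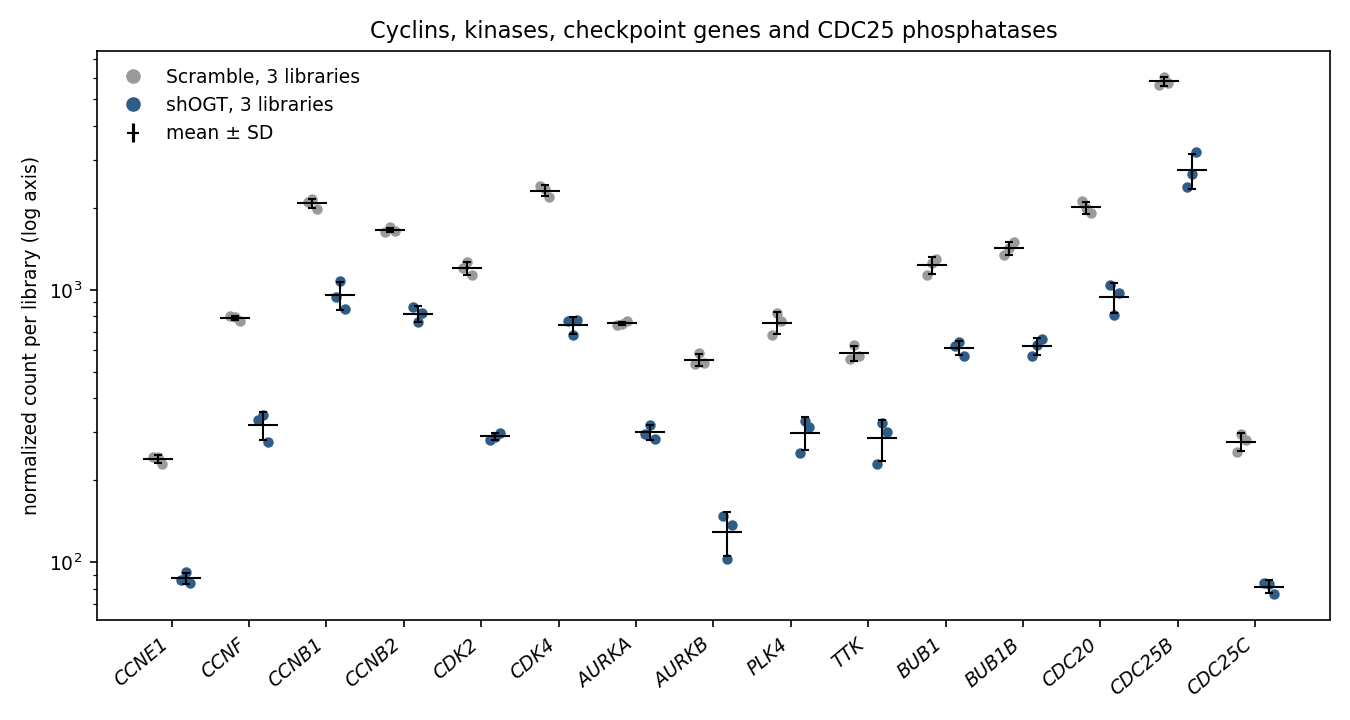
Normalized counts per library (y axis, log scale) of the cyclins, the 2 classical cyclin-dependent kinases, the Aurora kinases, PLK4, the checkpoint genes and the CDC25 phosphatases (points, 3 Scramble libraries in grey and 3 shOGT libraries in blue; black marks, mean ± SD). In all 15 genes the shOGT points lie below the Scramble points, with the widest gaps for CDK2, AURKB and CDC25C and the narrowest for TTK and BUB1.

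Among the mitotic kinases and phosphatases, 10 of 12 fell. AURKB, the kinase of the chromosomal passenger complex that corrects faulty attachments, read 532, 585 and 540.2 in Scramble and 148, 103 and 137 in shOGT, leaving 23.4% (log2 fold change -2.10, SE 0.15, limma adjusted p = 8.49e-09). AURKA, the Aurora kinase of centrosomes and spindle poles, went from 743, 751 and 766 in Scramble to 296, 319 and 283 in shOGT (log2 fold change -1.33, SE 0.10). The 2 Aurora kinases had nearly equal levels per kb in Scramble, 257 for AURKA and 246 for AURKB, and stood at 102 and 57.7 in shOGT. PLK4, which starts centriole duplication, read 682, 824 and 766 in Scramble and 253, 331 and 314 in shOGT (log2 fold change -1.34). NEK9, which activates other NIMA-related kinases at mitotic entry, went from 1000.5, 1031 and 986 in Scramble to 285, 296 and 281 in shOGT, with a log2 fold change of -1.80 beside -1.12 for NEK2, which splits the centrosomes. CDC25B and CDC25C, the phosphatases that activate CDK1, both fell. CDC25B was the most abundant member per kb (1349 in Scramble) and read 5658, 6056 and 5747 in Scramble and 2389, 2669 and 3197 in shOGT (log2 fold change -1.09, and -0.99 without shOGT replicate 4). CDC25C read 254, 296 and 281 in Scramble and 84.2, 83.5 and 76.3 in shOGT (log2 fold change -1.75). The 2 that rose were other NIMA-related kinases at low levels. NEK10 read 37.3, 29.7 and 46.0 in Scramble and 129, 137 and 162 in shOGT, 3.79 times the Scramble mean (log2 fold change 1.91, SE 0.23). NEK11 rose from a mean of 65.9 ± 9.42 to 196 ± 14.6 (SD, n = 3), with a log2 fold change of 1.56. In Scramble they held 3.93 and 12.3 normalized counts per kb, compared to 227 for NEK2.

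The 4 spindle checkpoint genes fell, all by little more than 2-fold. TTK, the kinase at the top of the checkpoint, read 555, 624 and 571 in Scramble and 229, 323 and 302 in shOGT. BUB1, a checkpoint kinase of the kinetochore, read 1133, 1255 and 1298 in Scramble and 620.0, 646 and 574 in shOGT. For BUB1B, which encodes BUBR1 of the mitotic checkpoint complex, the Scramble libraries gave 1343, 1420.2 and 1494 and the shOGT libraries 572, 627 and 660.2. CDC20, the APC/C activator that this complex holds back, went from 2111, 1997 and 1906 in Scramble to 1042, 808 and 971 in shOGT. The groups did not overlap for any of the 4, and the log2 fold changes were -1.05 (SE 0.13), -1.001 (SE 0.10), -1.20 (SE 0.09) and -1.10 (SE 0.10). BUB1B stayed past 2-fold without any single library, and the other 3 did not. TTK was at -0.996 without Scramble replicate 2 and at -0.90 without shOGT replicate 4, BUB1 was at -0.98, -0.96 and -0.95 without Scramble replicate 2, Scramble replicate 3 and shOGT replicate 6, and CDC20 was at -0.99 without shOGT replicate 5. Of BUB1B's exon bases, 10.2% are shared with the BUB1B-PAK6 readthrough gene.

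In the APC/C, the ubiquitin ligase of anaphase, the scaffold subunit gene ANAPC5 read 1541, 1627 and 1643 in Scramble and 539, 489 and 488 in shOGT (log2 fold change -1.66, SE 0.09). CDC23, another subunit, went from 373, 439.7 and 371 in Scramble to 135, 172 and 131 in shOGT (log2 fold change -1.43). ANAPC13, a small subunit, was higher, from a mean of 539 ± 52.6 to 1112 ± 201 (SD, n = 3), with a log2 fold change of 1.03 that was 0.96 without Scramble replicate 1 and 0.90 without shOGT replicate 6. A part of its exons, 12.97% of the bases, lies opposite CEP63. The 4 genes of this class thus moved in both directions.

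All 10 centromere and kinetochore genes fell, with log2 fold changes from -3.07 to -1.06. CENPM, a subunit of the constitutive centromere network (chr22:41938721-41947164), read 473, 435 and 480.3 normalized counts in Scramble and 67.4, 45.0 and 52.4 in shOGT, so that 11.9% remained (log2 fold change -3.07, SE 0.17, limma adjusted p = 9.29e-10). CENPI, of the same network, went from 329, 352 and 415 in Scramble to 69.5, 103 and 56.9 in shOGT (log2 fold change -2.28). SPC25, a subunit of the NDC80 complex that binds microtubules, read 224, 303 and 285 in Scramble and 55.8, 65.3 and 52.4 in shOGT (log2 fold change -2.20). CENPI and SPC25 kept 20.9% and 21.4% of their Scramble means, and none of the shOGT libraries of the 3 genes came near a Scramble library. CENPA, the histone H3 variant that marks centromeres, kept 28.4% (log2 fold change -1.83), and CENPF, a large protein of the outer kinetochore, 29.7% (-1.75). The network genes CENPH, CENPU and CENPW had log2 fold changes of -1.35, -1.31 and -1.06, the last at -0.97 without Scramble replicate 2. SKA3 and SKA1, of the complex that holds kinetochores on shortening microtubules, had -1.52 and -1.13. Within this class the levels per kb in Scramble ran from 84.6 for CENPI to 390.2 for SKA3. CENPM stood at 260.3 in Scramble, close to CENPH at 273, and at 30.9 in shOGT, where CENPH was at 107.

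The 5 mitotic kinesins fell as well. KIFC1, the minus-end motor that bundles spindle poles, read 739.7, 770.5 and 667 in Scramble and 178, 199 and 143 in shOGT (log2 fold change -2.07, SE 0.14). KIF18B, which shortens astral microtubules, went from 586, 478 and 532 in Scramble to 199.99, 136 and 137 in shOGT (log2 fold change -1.77). CENPE, the motor that carries chromosomes to the metaphase plate, read 1004, 1222 and 1244 in Scramble and 389, 603 and 434 in shOGT (log2 fold change -1.30). KIF15 and KIF11, the motors that push the spindle poles apart, had log2 fold changes of -1.23 and -1.11. Among the shOGT libraries of CENPE, replicate 5 was the highest, and it was still under the lowest Scramble library.

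The augmin complex nucleates new microtubules on existing spindle microtubules, and its 4 genes in the table fell. HAUS4 read 162, 221 and 170.2 in Scramble and 31.6, 32.1 and 31.9 in shOGT (log2 fold change -2.48, SE 0.21), and HAUS1 228, 281 and 245 in Scramble and 72.6, 66.4 and 43.3 in shOGT (log2 fold change -2.06). HAUS7 was weakly expressed, at 21.3, 25.2 and 23.0 in Scramble and 3.16, 4.28 and 2.28 in shOGT, with 77 reads in Scramble and 9 in shOGT, a ratio of 0.141 after scaling (95% exact interval 0.0620 to 0.281, counting error only; log2 fold change -2.54). HAUS5 had a log2 fold change of -1.02, which was -0.97 without Scramble replicate 1 and -0.90 without shOGT replicate 6. The reads of 2 of these genes cannot be placed with certainty. For HAUS7, 35.6% of its exon bases overlap TREX2 on the same strand. Of the 75-base stretches of its transcript with the longest coding sequence, 90.5% also occur in TREX2. For HAUS4, 34.1% of its exon bases overlap AL132780.3 or MIR4707 on the same strand.

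Condensin folds chromosomes for mitosis and separase opens cohesin, and the 4 genes of this class fell by similar amounts, from -1.61 to -1.89 on the log2 scale. NCAPD2, a subunit of condensin I, read 1749, 1686 and 1666 in Scramble and 473, 435 and 466 in shOGT (SE 0.09, limma adjusted p = 2.29e-10). NCAPH2, of condensin II, went from 607, 546 and 471 in Scramble to 193, 120.0 and 138 in shOGT. NCAPG, also of condensin I, read 1486, 1722 and 1603 in Scramble and 430.5, 564 and 478 in shOGT (log2 fold change -1.71), with 33.1% of its exon bases opposite LCORL. ESPL1, the separase gene, kept 32.9% of a Scramble mean of 1149 ± 21.4 (SD, n = 3).

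The 4 CDCA genes in the table, from a family named for co-expression with CDK1, fell. CDCA5, which encodes sororin, the guard of cohesin, read 1431, 1254 and 1273 in Scramble and 425, 378 and 300.5 in shOGT (log2 fold change -1.85). CDCA3, a factor of mitotic entry, went from 375, 376 and 423 in Scramble to 129, 107 and 109 in shOGT (log2 fold change -1.76). CDCA7, a partner of the remodeller HELLS, read 710.4, 701 and 696 in Scramble and 198, 214 and 212 in shOGT (log2 fold change -1.75). CDCA8, which encodes borealin of the passenger complex, fell least, with a log2 fold change of -1.06. CDC45, a part of the replicative helicase and the only member of its class in the table, read 647, 744 and 717 in Scramble and 329, 313 and 293 in shOGT (log2 fold change -1.17, SE 0.11).

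The families that also work outside mitosis were mixed. In the classes above, 50 of 54 genes were lower (92.6%), and in the centrosome, other kinesin and outside-cycle classes 15 of 23 were (65.2%). The second share is near the 57.1% of protein-coding genes called lower, beside 47.2% of all genes tested. Classes were set by gene symbol, so that CDK5 stands in the first set and CEP55 in the second. Of 15 CEP genes, 11 fell. CEP70, which organises microtubules at the centrosome, read 367, 362 and 339.6 in Scramble and 73.7, 104 and 100.2 in shOGT (log2 fold change -1.95, SE 0.16). The other 10 were CEP41 (-1.66), CEP131 (-1.58), CEP68 (-1.45), CEP152 (-1.25), CEP128 (-1.23), CEP78 (-1.22), CEP85 (-1.18), CEP55 (-1.09), CEP57 (-1.09) and CEP57L1 (-1.07), each with its log2 fold change. Of these, CEP55 acts in the final cut of cytokinesis, CEP152 recruits PLK4 to the centriole, and CEP131 and CEP41 also serve cilia. CEP57 was at -0.98 and CEP57L1 at -0.84 without shOGT replicate 4, and 10.7% of the 75-base stretches of CEP57L1 recur in CEP57L1P1.

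The 4 CEP genes that rose ranged widely in level. CEP170, a protein of the mature centriole's appendages, was well expressed, with a mean of 1509 ± 109.8 in Scramble and 3303 ± 476 in shOGT (SD, n = 3; log2 fold change 1.12), and 37.7% of its 75-base stretches recur in other genes, CEP170P1 included. CEP19, a ciliary and centriolar protein, read 52.3, 27.0 and 32.2 in Scramble and 148, 115 and 123 in shOGT (log2 fold change 1.81, SE 0.26). CEP295NL had the highest log2 fold change of the 77 genes, 4.40 on the scale of log2(normalized count + 1). It read 2.66, 4.51 and 2.76 in Scramble and 109, 79.3 and 79.7 in shOGT, with 11 reads against 248, a ratio of 27.1 (95% exact interval 14.9 to 55.1, counting error only). CEP85L had a log2 fold change of 1.18.

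Kinesins of transport and cilia included both the deepest fall and 3 of the rises. KIF21B, a motor that also pauses microtubule growth (chr1:200969390-201023700), read 2031, 2103 and 1889 normalized counts in Scramble and 86.3, 70.7 and 82.0 in shOGT. Only 3.97% of the Scramble mean remained (log2 fold change -4.64, SE 0.12, limma adjusted p = 1.59e-12), beside 4.99% for OGT. KIF12 was low in both groups, 122, 77.5 and 85.6 in Scramble and 14.7, 4.28 and 10.2 in shOGT (log2 fold change -3.27, between -3.61 and -2.82 when single libraries were left out). KIFC2, a minus-end motor of the nervous system, went from 363, 314 and 312 in Scramble to 66.3, 60.0 and 58.0 in shOGT (log2 fold change -2.40), and 17.8% of its exon bases lie opposite FOXH1. KIF24, which restrains cilium growth, had a log2 fold change of -1.83. The kinesins that rose were KIF9, a ciliary motor (1.34), KIF16B, which moves early endosomes (1.28), and KIF3C, a subunit of kinesin-2 (1.16). Of KIF9's exon bases, 17.9% lie opposite KIF9-AS1 or KLHL18. CDK8, the kinase of the Mediator complex that acts in transcription and not as a cell cycle engine, read 865, 917 and 894 in Scramble and 1858, 2192 and 2229 in shOGT (log2 fold change 1.22, SE 0.09).

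**Figure D4:**
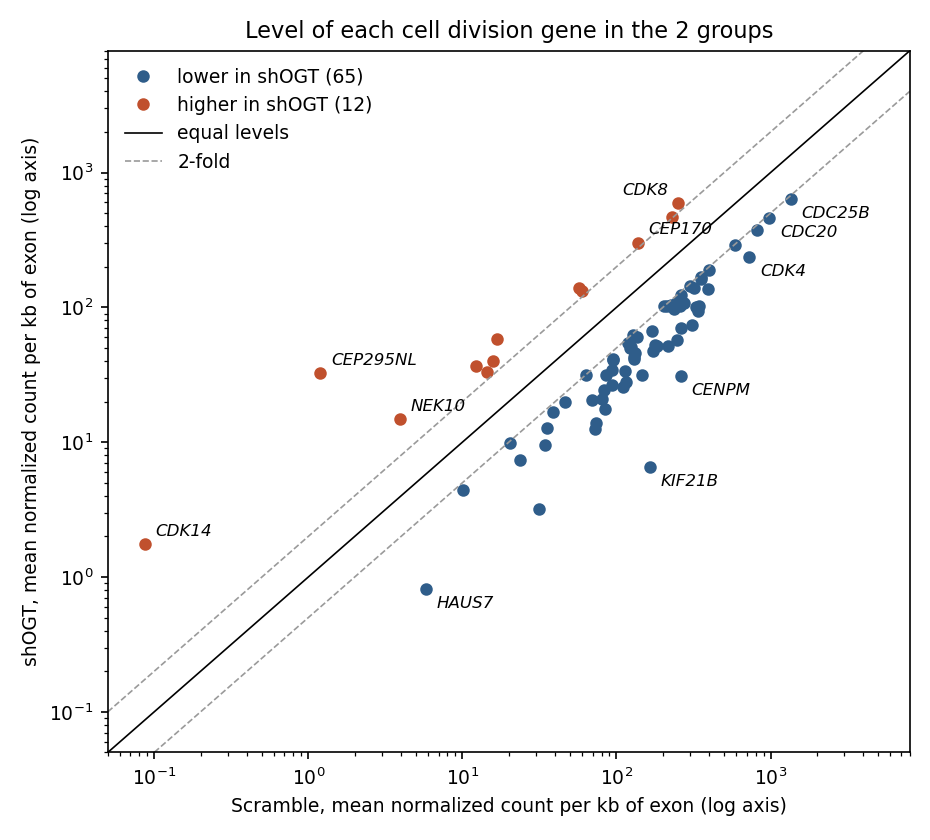
Mean level of each division gene in Scramble (x axis) and shOGT (y axis), in normalized counts per kb of exon on log axes, with the line of equal levels and dashed lines at 2-fold. The 65 lower genes lie along or under the lower dashed line, with KIF21B and CENPM well under it, and CDK14 and CEP295NL stand furthest above the upper one, from levels of 0.0871 and 1.20 per kb in Scramble.

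Lower and higher genes also had different medians of level and span, which are given without a test. The median of the mean over all 6 libraries was 449.6 normalized counts for the 65 lower genes and 194.7 for the 12 higher ones. Higher genes spanned more of the genome, with a median span of 141 kb against 28.2 kb. Over the protein-coding genes of the table these medians were 37.4 kb for higher and 24.0 kb for lower genes, and over all genes tested they ran the other way, at 17.0 kb and 20.6 kb. Of the 12 higher division genes, 5 (ANAPC13, CEP19, KIF9, NEK10 and NEK11) lie on chromosome 3, which holds 7 members in all. That chromosome was picked out with the directions known. The share of all its genes that were higher was not computed, so no trait of the chromosome can be read from this. Across all genes of the table, the share that was lower rose with the GC content of the exons, from 27.1% in the lowest of 5 equal classes to 69.9% in the highest. Division genes were lower in most cases in every class, in 18 of 21 in the lowest and 10 of 10 in the highest. By span, 21 of 21 division genes of the middle class were lower and 7 of 14 of the longest class, where 40.8% of all genes were. GC content and span thus moved with direction in the table, and their part in the values of single genes was not tested.

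**Figure D5:**
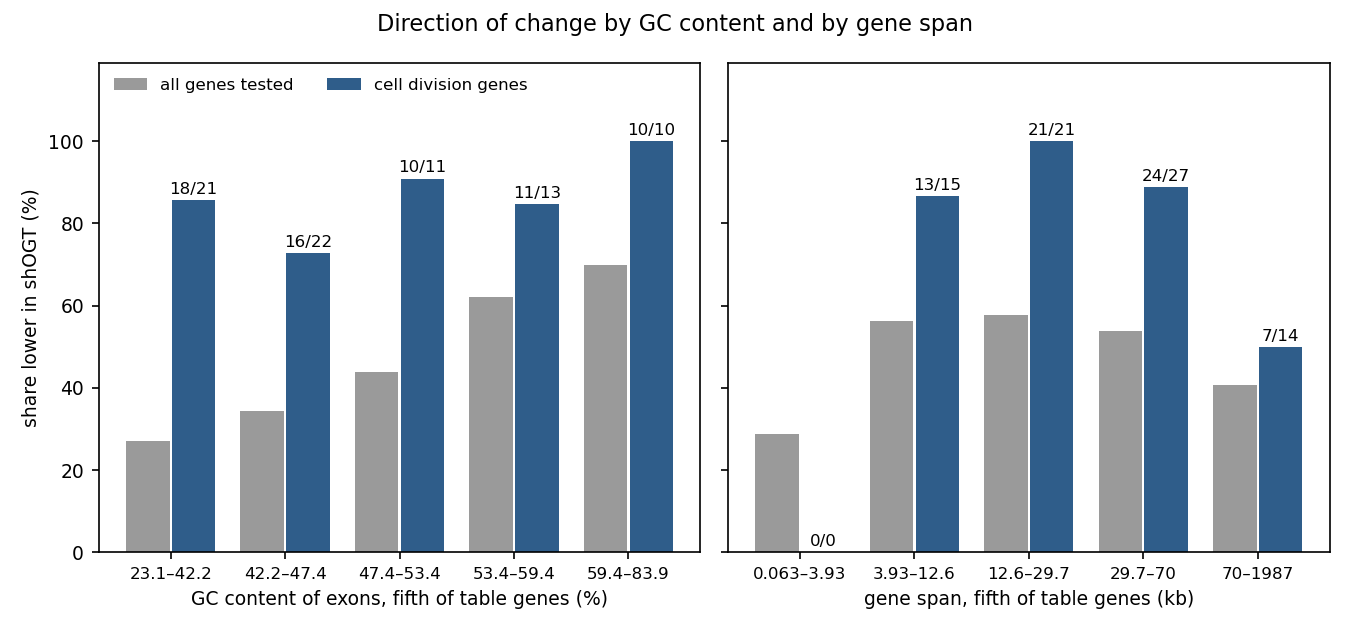
Share of genes lower in shOGT (y axis, percent; bars start at 0) in 5 equal classes of the table's genes by GC content of the exons (left) and by span of the gene (right), for all genes tested in grey and the division genes in blue, with lower genes over all division genes of the class above each blue bar. The blue bars exceed the grey ones in each class with members, and in the longest class they stand at 7 of 14.

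Other genes of the same pathway, from a list of 101 in 12 groups that the name rule does not take, moved the same way. Of these, 39 were in the table, and 38 were called lower and 1 higher, where 47.2% of all genes tested were called lower. Of the RB, E2F and DREAM group, 9 of 17 were in the table and all 9 fell, here as log2 fold changes. They were RB1, the G1 brake (-2.27), the activators E2F1 (-1.75) and E2F2 (-1.66), and E2F8 (-1.88), E2F7 (-1.80), RBL1 (-1.66), LIN52 (-1.54), TFDP2 (-1.32) and E2F4 (-1.13). FOXM1, the transcription factor of G2 and mitosis genes, read 2035, 2058 and 2058 in Scramble and 515, 512 and 449.6 in shOGT (log2 fold change -2.06, SE 0.09, limma adjusted p = 1.33e-10). MYBL2, which acts with the MuvB core at CHR elements, went from 6508, 6314 and 6050.4 in Scramble to 2359, 2191 and 2404 in shOGT (log2 fold change -1.44). NFYC and NFYB, subunits of the factor that binds CCAAT boxes, had log2 fold changes of -2.03 and -1.04. UBE2C, the ubiquitin-conjugating enzyme of the APC/C, fell most of the 39, from 2415, 2617 and 2315 in Scramble to 282, 350.2 and 322 in shOGT (log2 fold change -2.94). PTTG1, which encodes securin, the partner of separase, had -2.04, INCENP, the scaffold of the passenger complex, -1.65, and ZWINT of the kinetochore -2.33. Of the proliferation markers, PCNA (-1.90) and TOP2A (-1.60) were in the table, 2 of 11. The CDK inhibitors CDKN3 (-1.83) and CDKN2C (-1.29) fell too. The exception was NIN, a centriole protein, which read 681, 733 and 719 in Scramble and 1515, 1690.1 and 1499 in shOGT (log2 fold change 1.14).

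Genes of both S phase and G2/M were represented. Of the widely used phase lists for single-cell data, taken up after the values were seen, the G2/M list had 30 of 54 genes in the table, 29 of them called lower, with JPT1 at a log2 fold change of 0.998 and not called. The S phase list had 18 of 43, 17 called lower and MRPL36 higher. Of the genes in the table, 15 of the G2/M list and 3 of the S phase list (CDC45, CDCA7 and CENPU) are themselves members by name, and without them 14 of 15 were called lower in each list. Of all genes tested 47.2% were called lower, and 57.1% of the protein-coding ones. Several of the genes that are not members, UBE2C, TOP2A and PCNA among them, also stand in the pathway list above, so the lists are not separate sets. The medians were close, at -1.31 for the G2/M list and -1.34 for the S phase list.

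Namesakes of the division genes among other biotypes were higher in shOGT, at low counts. The table holds 4 genes of other biotypes whose names match the same rule, the pseudogenes AURKAP1, NCAPGP1 and HAUS1P1 and the antisense gene SMC5-AS1. AURKAP1 read 0, 0.901 and 0.920 normalized counts in Scramble and 8.42, 20.4 and 2.28 in shOGT. HAUS1P1 had no read in Scramble and 5.26, 6.43 and 1.14 in shOGT. AURKAP1 and HAUS1P1 reached 1 normalized count in the shOGT libraries alone. They passed the filter through that group only and could only come out higher, so their direction is no result. NCAPGP1 read 5.32, 6.31 and 8.28 in Scramble and 16.8, 21.4 and 22.8 in shOGT. SMC5-AS1 went from a mean of 12.0 ± 7.25 to 44.1 ± 9.20 (SD, n = 3). The genes AURKA, HAUS1 and NCAPG, after which the pseudogenes are named, fell, and the pseudogene values rest on few reads per library. Across the 5671 genes tested 2959 were called higher, against 1747 of the 4127 protein-coding ones, so genes of other biotypes were more often higher. The share higher was not computed for pseudogenes or antisense genes apart, so no trait of the 4 namesakes can be read from their direction.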

How the data were processed

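RNA-seq was deposited for 6 HT-29 libraries, 3 Scramble and 3 shOGT, numbered 1 to 6 in the labels. The deposited signal values are counts that the authors divided by 1 size factor per library. From the smallest step of each library, whole reads were recovered for 100% of the values (tolerance 0.02). Per the labels, cutadapt 1.9, HISAT2 2.0.4, UMI-tools, StringTie 1.3.4d, DESeq2 and edgeR were used, and the setting of strand in counting is not given in the sources used here. The labels name a mouse build, but the file's gene positions and names matched GENCODE 29 on GRCh38 for all 5681 genes. In the authors' deposited columns every gene was past 2-fold with an adjusted p under 0.05, while the study's text speaks of a p value. Their group means, log2 fold changes and p-values were not used. The labels describe oligo(dT) selection and dUTP marking with molecular identifiers, and the study's methods name a strand-specific library kit of Agilent.

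limma 3.58.1 (R 4.3.3, trend method) was fitted, by group alone, to log2(normalized count + 1) of the 5671 genes that reached 1 in 3 or more libraries, and p-values were adjusted by Benjamini-Hochberg over all of them. Fold changes on this scale understate the change of low genes. A gene was called at an adjusted p under 0.05 and over 2-fold. The script was tested on simulated data. Levels per kb were means divided by the exon length in the file. Read ratios were given with exact 95% binomial intervals, which cover counting error only. Alternatives were a rescaling by the median of ratios, a pseudocount of 0.1, no filter, a minimum mean of 5, each library left out, and edgeR 4.0.16 (quasi-likelihood) and DESeq2 1.42.0 on the recovered reads. Motifs were searched in RefSeq promoter windows of GRCh38.p14.

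Genes were grouped into 14 role classes. Values per library were given for the 3 genes of each class with the largest absolute log2 fold change (mean over all libraries 10 or higher), and for each cyclin, CDK2, CDK4, Aurora, Polo-like, checkpoint and CDC25 gene. Members outside this rule are given by their log2 fold change, with means or reads for NEK11, CEP170, ANAPC13, ESPL1 and CDK14. The members, lists and motifs were chosen with earlier results of these data known.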

Additional observations from a re-analysis of the deposited data

How the results depend on the processing

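Under a pseudocount of 0.1, no filter, a minimum mean of 5, edgeR and DESeq2, all 77 division genes kept their direction and their call. Rescaling by the median of ratios changed the most. It left 25 of the 65 lower division genes called, and 1089 of the 2677 lower genes of the table, with the share of lower among called genes going from 47.5% to 26.8%. It adds 0.71 on average to each log2 fold change, so that 40 members lost their call and none changed direction. Among those 40, CEP57L1, CENPW, CEP128 and HAUS5 also had a limma adjusted p over 0.05, at 0.178, 0.0789, 0.0565 and 0.0503. With single libraries left out, 61 to 64 division genes were called lower and 11 to 12 higher, 2543 to 2652 genes of the table were lower and 2857 to 2897 higher, and the log2 fold change of OGT ran from -4.42 to -4.24. The genes that went under 2-fold there were ANAPC13, BUB1, CCNB2, CDC20, CDC25B, CDK16, CDK5, CENPW, CEP57, CEP57L1, HAUS5 and TTK, whose log2 fold changes were near the 2-fold limit. The log2 fold change of CDK14 depended on the pseudocount, at 3.03 with 1 and 4.65 with 0.1. No paired analysis was possible because the labels number the libraries 1 to 6 and no number is shared between the groups. Depth limits CDK14, CEP295NL, HAUS7 and KIF12, which rest on few reads in a group, and no gene outside the table was analysed.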
